A study of Homo sapiens with 4 samples.

Results

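The mitochondrial carriers are the transporters of the SLC25 family, and the genes described here are all those whose annotated symbol is SLC25A followed by a number. The probe sets with a single symbol held 46 such genes among 18244 in all, measured by 117 probe sets, and 34 of the 46 had more than 1 probe set. Where a gene had several, the probe set brightest on average stood for it. Of the 46, 35 passed the filter on low intensities and were tested among 10946 genes, and 11 did not. SLC25A6 had no probe set with a single symbol and was not analysed here.

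The cells came from Kelly, an established human neuroblastoma line, in a derivative resistant to TAE684, a small molecule that inhibits the ALK receptor kinase. One group carried a short hairpin against BORIS (shBORIS, 2 arrays), the protein encoded by CTCFL, and the other carried a control hairpin called shLUC (2 arrays). All 4 cultures were grown with 1 µM TAE684, exposed to virus with polybrene for 24 h and selected in puromycin for 48 h, so that resistance, drug, virus and selection were common to both groups. The labels name 1 hairpin for each group and call the pair of arrays in each biological duplicates. No parental cells or cells without the drug were analysed here.

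As background, the carriers sit in the inner mitochondrial membrane, where each moves a small set of metabolites between the cytosol and the matrix. The ADP/ATP and phosphate carriers supply the ATP synthase and export its product. The carriers of citrate, oxoglutarate, aspartate and glutamate link the citric acid cycle to the cytosol, and those of carnitine, nucleotides, iron and cofactors feed fatty acid oxidation, mitochondrial DNA and RNA, and iron-sulphur and haem synthesis. In dividing tumour cells the export of citrate and aspartate from mitochondria is known for its part in lipid and nucleotide synthesis.

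The targeted gene checked the labels. CTCFL had intensities of 701 and 737 on the shBORIS arrays, against 3563 and 3376 on the shLUC arrays, and fell by 2.25 on the log2 scale (limma adjusted p = 1.8e-92). Its 6 probe sets above the filter ran from -3.05 to 0.11 as deposited, 5 of them below 0, and the mean of its probe sets gave -1.50. The median tested gene was 0.48 higher in shBORIS cells on the log2 scale of the deposited values, while the medians of the ERCC spike-in probe sets were 25.5 and 25.8 in shBORIS and 24.8 and 24.4 in shLUC. The 12 background control probe sets with 3 to 14 G or C bases per probe had shBORIS over shLUC ratios of 0.955 to 1.049, and the 11 with 15 to 25 had ratios of 1.067 to 1.477. The GC-rich background probes moved with the higher values in shBORIS while the others did not, and their part in the carrier results was not tested. All 9 measured adrenergic neuroblastoma markers passed the filter, with summed intensities of 23844.9 and 24712.7 in shBORIS and 18064 and 17313.5 in shLUC, or 17573 and 18474.2 against 15772.3 and 15339.2 without CHGA. Of these 9, 2 rose and 6 fell relative to the median gene, beside 30.2% and 28.9% of all tested genes. Of 6 measured Schwann cell and glial markers 2 passed it, with sums of 321 and 370.6 against 321.9 and 290.6. Of 11 fibroblast, endothelial and immune markers 3 passed it, with sums of 886.8 and 934.9 against 1131.4 and 1148.3, or 435.6 and 420.1 against 402.1 and 369.1 without COL1A1. No marker was at 0, and the immune marker PTPRC was between 10.75 and 15.87 on the 4 arrays. The part of these marker differences in the carrier results was not tested.

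Because the median gene differed, each change is given on 2 scales. The first is that of the deposited values, and the second, relative to the median gene or the relative scale, subtracts each array's median over the tested genes. On the scale relative to the median gene, 7 of the 35 tested carriers rose, 17 fell and 11 did not pass the test at a limma adjusted p of 0.05. Among all tested genes 30.2% rose and 28.9% fell on that scale, 59.1% in all. The median carrier was -0.20 relative to the median gene, and -0.10 without shBORIS replicate 2. As deposited, 20 of the 35 rose and 0 fell, beside 77.2% and 4.6% of all tested genes (81.8% in all), and the median carrier was at 0.28 (0.17 without shLUC replicate 2) against 0.48 for all genes. After quantile normalization, which sets all arrays to 1 distribution, 7 carriers rose and 15 fell, beside 29.6% and 25.8% of all genes. By limma 0 carriers fell as deposited at an unadjusted p under 0.05 either, and 3 had a difference below 0. The scales order the carriers alike but place the zero differently. Of the 20 that rose as deposited, 7 also rose relative to the median gene, 11 were not called and SLC25A22 and SLC25A25 fell, and the 15 not called as deposited all fell relative to the median gene. In bulk RNA such a difference cannot be told apart from a change in the number of cells of a type. With 2 arrays a group, an exact permutation test of a single gene cannot go below p = 0.333, so calls rest on the limma fit over all genes, and as deposited that fit gave every gene the variance of the intensity trend.

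**Figure D1:**
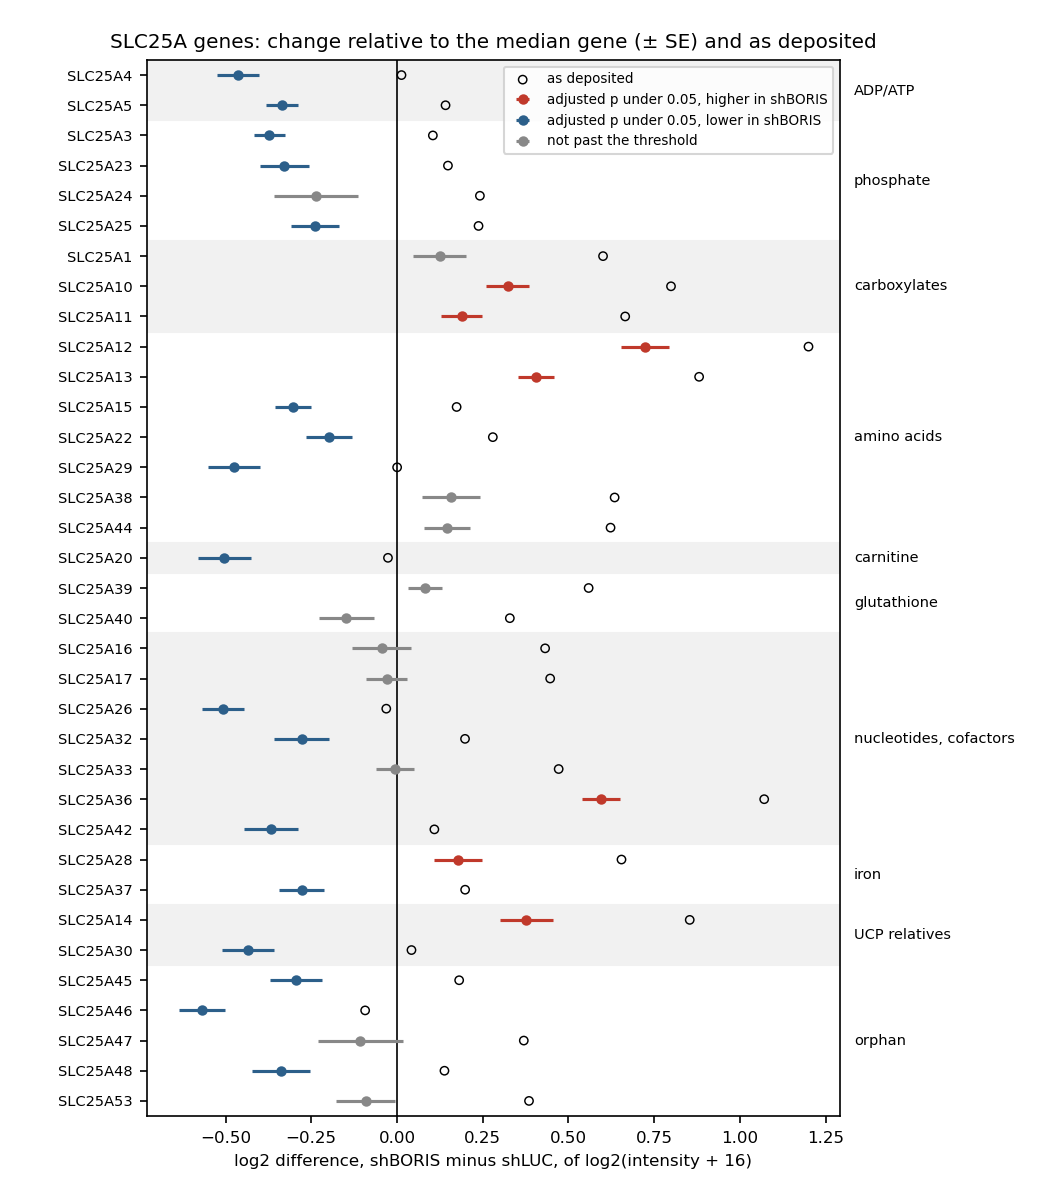
Change of each of the 35 tested SLC25A genes, shBORIS over shLUC, on the log2 scale relative to the median gene, in filled points with bars of 1 SE from the limma fit, and as deposited in open circles, with genes grouped by substrate. Red points are called higher (7), blue lower (17) and grey not called, from 0.72 for SLC25A12 to -0.57 for SLC25A46.

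The aspartate-glutamate carriers, which export aspartate from the matrix in exchange for glutamate and a proton and are regulated by calcium, were among the carriers that rose. SLC25A12, the form prominent in brain and muscle, had intensities of 215 and 231 on the shBORIS arrays, against 95.1 and 81.2 on the shLUC arrays. The groups did not overlap, and the difference was 1.20 as deposited and 0.72 ± 0.07 (SE) on the relative scale, a 1.65-fold change on that scale (limma adjusted p = 2.07e-05, n = 2 each). SLC25A13, or citrin, the form prominent in liver, had 1245 and 1360 in shBORIS, against 740 and 660.5 in shLUC. Its difference was 0.88 as deposited and 0.40 ± 0.05 on the relative scale (limma adjusted p = 0.000113). Both probe sets of SLC25A12 above the filter (0.53 and 0.72) and all 3 of SLC25A13 (0.38 to 0.45) lay above the median gene.

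The second carrier of the malate-aspartate shuttle is SLC25A11, which exchanges oxoglutarate for malate. It had 952 and 1012 in shBORIS, against 607 and 619 in shLUC, which was 0.67 as deposited and 0.19 ± 0.06 on the relative scale (limma adjusted p = 0.0202). That relative difference was 0.07 with quantile normalization (limma adjusted p = 0.357) and 0.12 with the 60th percentile filter (0.107), and was called in neither. The groups did not overlap, but the relative call was lost without shBORIS replicate 1, shBORIS replicate 2 or shLUC replicate 1, where the adjusted p was 0.0595, 0.0551 and 0.133. SLC25A10, which exchanges malate or succinate for phosphate, had 378 and 414 in shBORIS, against 223 and 218 in shLUC. It rose by 0.80 as deposited and by 0.32 ± 0.06 on the relative scale (limma adjusted p = 0.00137). SLC25A1, the citrate carrier that feeds cytosolic acetyl-CoA production, had 937.5 and 1107 in shBORIS, against 643 and 690.1 in shLUC. Its difference of 0.60 as deposited passed the test, and the 0.12 ± 0.08 relative to the median gene did not (limma adjusted p = 0.187), though it did without shLUC replicate 2 (0.0165). It was at 0.02 without shLUC replicate 1 (limma adjusted p = 0.822), 0.05 without shBORIS replicate 2 (0.646). The average of its 4 probe sets gave -0.001. The 3 above the filter lay at 0.12 to 0.27, and the other, at an intensity of 24.2, was at -0.68. All 3 tested carboxylate carriers rose as deposited, as did 77.2% of all genes, and 2 of them rose relative to the median gene, as did 30.2%.

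Outside these groups the largest relative rise was that of SLC25A36, which carries pyrimidine nucleotides into the matrix. SLC25A36 had 1366 and 1392 in shBORIS, against 654 and 642 in shLUC, with no overlap. The difference was 1.07 as deposited and 0.59 ± 0.06 on the relative scale, or 1.51-fold (limma adjusted p = 1.45e-05), and its 3 probe sets lay between 0.46 and 0.72. SLC25A33, its close relative and also a carrier of pyrimidine nucleotides, had 729 and 767 in shBORIS, against 543 and 527 in shLUC. It differed by 0.47 as deposited, which passed the test, and by -0.01 ± 0.06 relative to the median gene (limma adjusted p = 0.941). SLC25A14, a brain-enriched relative of the uncoupling proteins, had 231 and 279 in shBORIS, against 144 and 124 in shLUC, and rose by 0.38 ± 0.08 relative to the median gene (limma adjusted p = 0.00203). Its other probe set above the filter was at 0.15 on that scale and was not called (limma adjusted p = 0.1479). SLC25A28, or mitoferrin-2, which brings iron into mitochondria of most tissues, had 199 and 202 in shBORIS, against 128 and 115 in shLUC. It rose by 0.65 as deposited and by 0.18 ± 0.07 on the relative scale, where the call (limma adjusted p = 0.0476) was lost when any 1 of the 4 arrays was left out (adjusted p = 0.07 to 0.221).

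**Figure D2:**
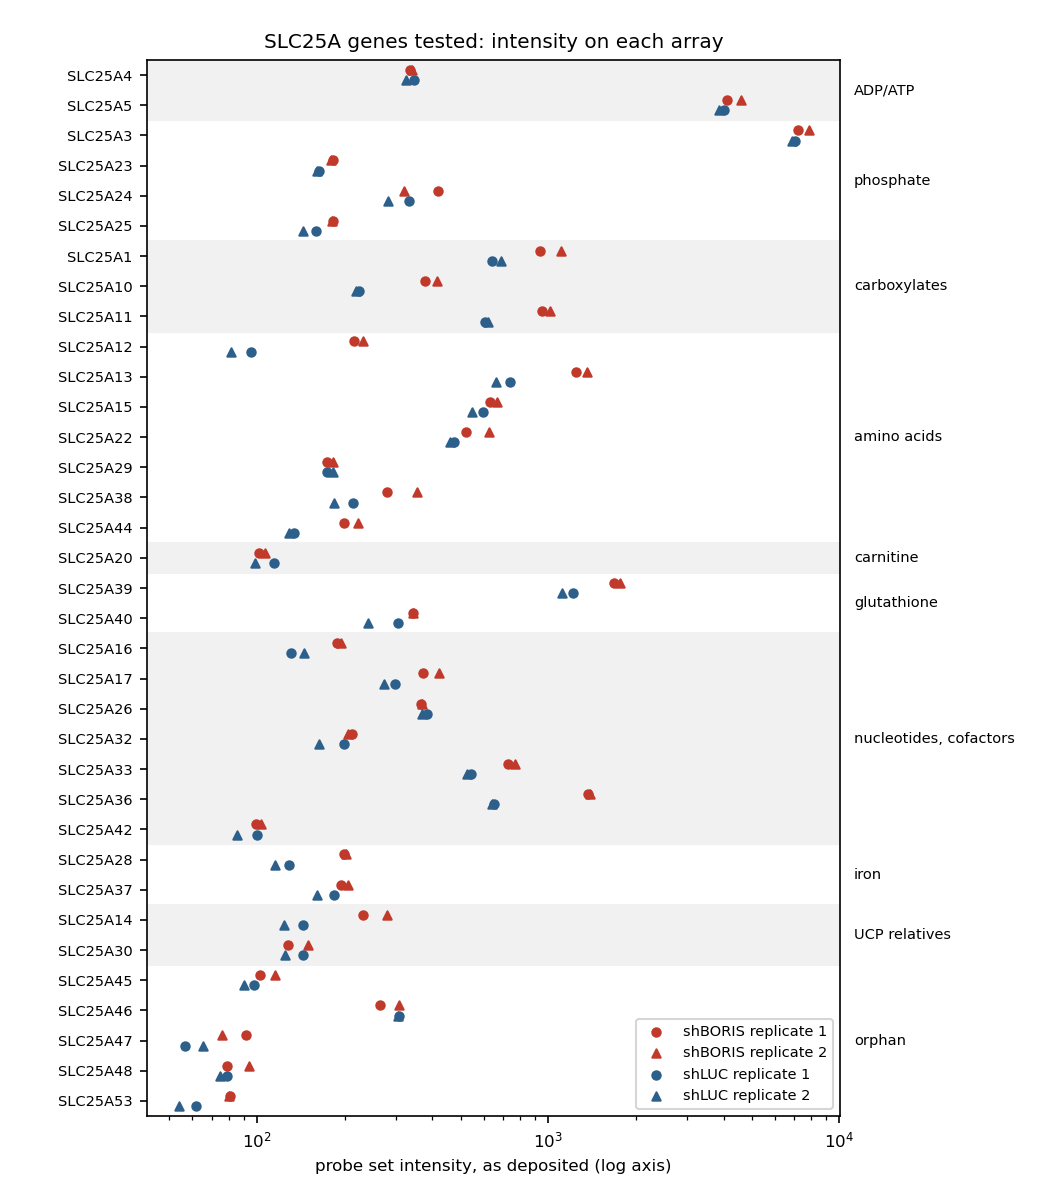
Deposited probe set intensity (horizontal log axis) of each of the 35 tested SLC25A genes, by substrate, with the shBORIS arrays in red above the shLUC arrays in blue and replicates 1 and 2 as circles and triangles. The shBORIS points of SLC25A12 and SLC25A36 lie well above the shLUC points, and those of SLC25A4, SLC25A20 and SLC25A29 overlap.

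The stretch just upstream of the annotated start is shown for SLC25A12, SLC25A13 and SLC25A36, the carriers that rose with the clearest values, and for SLC25A20, the carnitine carrier that fell. The sequences are RefSeq's, in GRCh38.p14, and run 5′ to 3′ on the gene's strand over the 250 bases before the start. They are chr2:171894245-171894494 (minus strand) for SLC25A12, chr7:96322099-96322348 (minus) for SLC25A13, chr3:140941586-140941835 (plus) for SLC25A36 and chr3:48898883-48899132 (minus) for SLC25A20. Capitals mark a match to the E-box CACGTG, the ETS motif CCGGAAG, the binding motif of NRF1 or the CTCF core AGGGGGC, searched on both strands.
SLC25A12: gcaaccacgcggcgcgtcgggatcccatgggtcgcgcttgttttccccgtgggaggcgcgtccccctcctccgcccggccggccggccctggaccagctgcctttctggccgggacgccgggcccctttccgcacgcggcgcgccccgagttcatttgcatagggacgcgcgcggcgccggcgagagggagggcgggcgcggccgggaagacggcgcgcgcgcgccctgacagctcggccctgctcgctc
SLC25A13: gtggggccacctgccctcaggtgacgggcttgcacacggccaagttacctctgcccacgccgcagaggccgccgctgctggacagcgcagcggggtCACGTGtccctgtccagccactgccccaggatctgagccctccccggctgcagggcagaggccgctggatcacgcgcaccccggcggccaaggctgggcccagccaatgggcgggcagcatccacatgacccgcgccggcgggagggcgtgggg
SLC25A36: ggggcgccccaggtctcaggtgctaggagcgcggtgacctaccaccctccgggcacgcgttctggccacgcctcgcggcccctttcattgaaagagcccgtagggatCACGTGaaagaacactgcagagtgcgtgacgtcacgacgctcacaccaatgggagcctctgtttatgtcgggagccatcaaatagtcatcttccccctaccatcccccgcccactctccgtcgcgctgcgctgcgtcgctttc
SLC25A20: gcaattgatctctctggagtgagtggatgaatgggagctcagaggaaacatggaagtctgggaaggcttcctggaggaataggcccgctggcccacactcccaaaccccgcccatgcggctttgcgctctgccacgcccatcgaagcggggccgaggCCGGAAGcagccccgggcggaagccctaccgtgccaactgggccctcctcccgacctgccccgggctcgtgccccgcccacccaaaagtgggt
SLC25A12 held none of these letters in the window, SLC25A13 an E-box 154 to 149 bases before the start, SLC25A36 an E-box 143 to 138 bases before it and SLC25A20 an ETS motif 93 to 87 bases before it. Their G and C content was 77.2%, 73.6%, 62.8% and 66.0%. Of 39 carriers with an entry, 7 (17.9%) held an E-box, against 6.49% of all 27305 promoters, and 8 (20.5%) held an ETS motif, against 8.82%. The NRF1 motif was in 4 (10.3%) against 5.53%, and the CTCF core was in 8 (20.5%) against 13.1%. Of the 7 carriers that rose relative to the median gene 2 held an E-box, as did 1 of the 14 with an entry that fell. The ETS motif and the CTCF core were each in 1 of the 7 and 3 of the 14, and the NRF1 motif was in 1 of each. These matches describe the letters only, since the series holds no binding data.

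SLC25A3, SLC25A4 and SLC25A5, which serve ATP production, fell relative to the median gene, as did 28.9% of all tested genes. Their deposited differences did not pass the test. The ADP/ATP carrier SLC25A6 had no probe set with a single symbol, so that group was not measured in full. SLC25A4, the ADP/ATP carrier that prevails in heart and muscle, had 336.5 and 340.5 in shBORIS, against 347 and 324 in shLUC. The groups overlapped as deposited, at 0.01, and the relative difference was -0.46 ± 0.06 (limma adjusted p = 0.000117). SLC25A5, the ADP/ATP carrier of dividing cells, had 4106 and 4577 in shBORIS, against 4005 and 3853 in shLUC, or 0.14 as deposited and -0.34 ± 0.05 on the relative scale (limma adjusted p = 0.000195). SLC25A31, the form of the testis, was below the filter at 6.59 and 10.1 in shBORIS, against 8.32 and 11.1 in shLUC. SLC25A3, the phosphate carrier, had 7193 and 7832 in shBORIS, against 7066 and 6894 in shLUC, and was at -0.37 ± 0.05 relative to the median gene (limma adjusted p = 7.52e-05). All 6 of its probe sets lay below the median gene, at -0.40 to -0.27. The deposited differences of SLC25A3 and SLC25A5, at 0.10 and 0.14, did not pass the test, in the brightest decile of genes, whose median difference was 0.46, and both passed without shBORIS replicate 1 (limma adjusted p = 0.0125 and 0.0135). SLC25A5 has 9 annotated pseudogenes and SLC25A3 has 3, and probes cannot tell a gene from a near-identical copy.

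The calcium-regulated carriers of ATP-magnesium for phosphate, which set the adenine nucleotide pool of the matrix, split in their calls. SLC25A23 had 183 and 179.8 in shBORIS, against 164 and 160.5 in shLUC, and was at -0.33 ± 0.07 relative to the median gene (limma adjusted p = 0.00316). SLC25A25 had 182 and 181 in shBORIS, against 159 and 144 in shLUC, and was called on both scales in opposite directions, 0.24 as deposited and -0.24 on the relative scale (limma adjusted p = 0.0329 and 0.0139). Its deposited call was lost without shBORIS replicate 1, shBORIS replicate 2 or shLUC replicate 2, and its relative call without shBORIS replicate 2 (adjusted p = 0.0968). SLC25A24 had 417 and 319 in shBORIS, against 333 and 281 in shLUC, and its groups overlapped. Its relative difference of -0.23 ± 0.12 was not called (limma adjusted p = 0.124), and it rested on the shBORIS arrays, at -0.47 without replicate 1 (0.000122) and near 0 without replicate 2. Its deposited difference of 0.24 passed the test (limma adjusted p = 0.037) but did not without shBORIS replicate 1 (0.723) or shLUC replicate 2 (0.408).

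SLC25A20, the carnitine-acylcarnitine carrier that brings fatty acyl groups into the matrix for oxidation, fell relative to the median gene and was not called as deposited. It had 101 and 106 in shBORIS, against 114 and 98.2 in shLUC, with overlapping groups, and -0.50 ± 0.08 relative to the median gene (limma adjusted p = 0.000315). SLC25A26, which brings the methyl donor S-adenosylmethionine into mitochondria, had 366 and 368 in shBORIS, against 382 and 369 in shLUC, a narrow gap with no overlap. Its relative difference was -0.51 ± 0.06 (limma adjusted p = 7.36e-05), but its second probe set stood at 0.01, and the mean of its probe sets was 0.226 as deposited. SLC25A46, an outer membrane member of the family known for its part in mitochondrial fission and shape, had 265 and 306.5 in shBORIS, against 306 and 304 in shLUC. The groups overlapped as deposited, and the relative difference of -0.57 ± 0.07, a 1.48-fold lower level on that scale, was the lowest among the tested carriers (limma adjusted p = 6.51e-05). Its probe sets stood at -0.78 and -0.57.

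Of the 7 tested amino acid carriers, 2 rose (the aspartate-glutamate pair), 3 fell and 2 were not called relative to the median gene. Among all tested genes 30.2% rose and 28.9% fell on that scale. SLC25A29, which carries basic amino acids, had 174.2 and 181.9 in shBORIS, against 173.7 and 182.3 in shLUC, so that the groups overlapped as deposited, and it was at -0.48 ± 0.08 relative to the median gene (limma adjusted p = 0.000415). SLC25A15, the ornithine carrier of the urea cycle, had 630.5 and 668 in shBORIS, against 599 and 549 in shLUC, and was at -0.30 ± 0.05 relative to the median gene (limma adjusted p = 0.000795). SLC25A22, a glutamate carrier, had 521 and 626 in shBORIS, against 476 and 460.3 in shLUC. It rose by 0.28 as deposited (limma adjusted p = 0.0182, or 0.364 without shBORIS replicate 2 and 0.0903 without shLUC replicate 2) and was at -0.20 ± 0.07 relative to the median gene, where the call (adjusted p = 0.0283) was lost without shBORIS replicate 1 (0.248) or shLUC replicate 2 (0.0927). The carriers not called relative to the median gene were SLC25A38, which supplies glycine for haem synthesis, at 0.16, and SLC25A44, which carries branched-chain amino acids, at 0.15. SLC25A38 had 280.4 and 356 in shBORIS, against 213 and 183 in shLUC, and both it and SLC25A44 rose as deposited, by 0.63 and 0.62. Without shBORIS replicate 1 SLC25A38 passed the test on the relative scale, at 0.28 (limma adjusted p = 0.0131), and without shBORIS replicate 2 it was at 0.04 (0.742).

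Among the 7 tested carriers of nucleotides and cofactors, 1 rose, 3 fell and 3 were not called relative to the median gene. The shares of all tested genes were 30.2% higher and 28.9% lower. Beside SLC25A36 and SLC25A26, the folate carrier SLC25A32 was at -0.28 (limma adjusted p = 0.0122) and the coenzyme A carrier SLC25A42 at -0.37 (limma adjusted p = 0.00259). SLC25A42 had 99.1 and 102.9 in shBORIS, against 99.9 and 85.5 in shLUC, groups that overlapped. Its other probe set above the filter was at -0.09 relative to the median gene and 0.39 as deposited (limma adjusted p = 0.4201 and 0.0011). SLC25A32 had 212 and 205 in shBORIS, against 198.5 and 163 in shLUC, and its call was lost without shBORIS replicate 2 (0.0708) or shLUC replicate 1 (0.0715). As deposited, SLC25A32 and SLC25A37 were at 0.20 each and did not pass the test, but passed it without shLUC replicate 1 (limma adjusted p = 0.0166 and 0.0364) and with the mean of their probe sets (0.019 and 0.0268). SLC25A16, linked to coenzyme A supply, and the peroxisomal carrier SLC25A17 lay at -0.04 and -0.03 and rose as deposited by 0.43 and 0.45. The mitoferrins differed in direction on the relative scale. SLC25A37, or mitoferrin-1, the form of red cell precursors, had 195 and 205 in shBORIS, against 184 and 161 in shLUC. It was at -0.28 ± 0.07 relative to the median gene (limma adjusted p = 0.00494), with all 5 probe sets between -0.31 and -0.25, while SLC25A28 stood at 0.18.

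Neither glutathione carrier was called relative to the median gene, and both rose as deposited. SLC25A39, which imports glutathione into mitochondria, had 1683 and 1758 in shBORIS, against 1216 and 1111 in shLUC, which was 0.56 as deposited and 0.08 ± 0.05 on the relative scale (limma adjusted p = 0.172). SLC25A40, its paralog, was at 0.33 as deposited and -0.15 ± 0.08 on the relative scale. Without shLUC replicate 2 it was no longer called as deposited (limma adjusted p = 0.256) and was called lower on the relative scale (0.0138). Of the uncoupling protein relatives, SLC25A30 was at -0.43 ± 0.08 relative to the median gene (limma adjusted p = 0.000792) with 128 and 150 in shBORIS, against 144 and 124.5 in shLUC, groups that overlapped, while SLC25A14 was at 0.38. Of the 5 tested carriers with a less certain substrate, SLC25A45, SLC25A46 and SLC25A48 fell relative to the median gene, at -0.30, -0.57 and -0.34. On that scale 28.9% of all tested genes fell. SLC25A47 and SLC25A53 were not called at -0.11 and -0.09, and both rose as deposited, by 0.37 and 0.39, the first not without shBORIS replicate 1 (limma adjusted p = 0.0938).

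The 11 carriers below the filter had intensities of 6.59 to 71.3 on the shBORIS arrays and 8.32 to 52.5 on the shLUC arrays. They were SLC25A2, SLC25A18, SLC25A21, SLC25A27, SLC25A31, SLC25A34, SLC25A35, SLC25A41, SLC25A43, SLC25A51 and SLC25A52. SLC25A18, the second glutamate carrier, had 25.8 and 24.0 in shBORIS, against 47.9 and 37.6 in shLUC, and SLC25A27, a neural relative of the uncoupling proteins, had 29.2 and 24.5 against 44.1 and 32.3. Neither pair of groups overlapped, and among all tested genes 6.6% were lower without overlap on deposited intensities. With no filter, these were the carriers lower as deposited, at -0.52 and -0.33 (limma adjusted p = 2.58e-05 and 0.00859). SLC25A2, SLC25A21 and SLC25A35 were then higher as deposited, at 0.282, 0.274 and 0.315 (limma adjusted p = 0.0281, 0.041 and 0.0107). The rest of the 11 were not called as deposited. Of the 6 probe sets of SLC25A27 only the brightest passed the test as deposited, and the others ran from -0.19 to 0.02.

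Over all tested genes, taken in deciles by mean intensity, the median difference as deposited was 0.31 in the dimmest decile, 0.62 in the ninth and 0.46 in the brightest. Of the 35 tested carriers, 12 lay above the median of their own decile and 23 at or below it. SLC25A12, SLC25A13 and SLC25A36 lay above theirs, and SLC25A3, SLC25A4 and SLC25A5 below. Of the 27 tested carriers with at least 2 probe sets above the filter, 24 had all of them on 1 side of the median gene, and among the 20 of the 27 that were called the exception was SLC25A26. Relative to the median gene, the groups did not overlap for 9 carriers that were higher in shBORIS, beside 40.3% of all genes, and for 18 that were lower, beside 39.1%. On deposited intensities they did not overlap for 27 that were higher, beside 83.8%, and for 1 that was lower (SLC25A26), beside 6.6%.

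**Figure D3:**
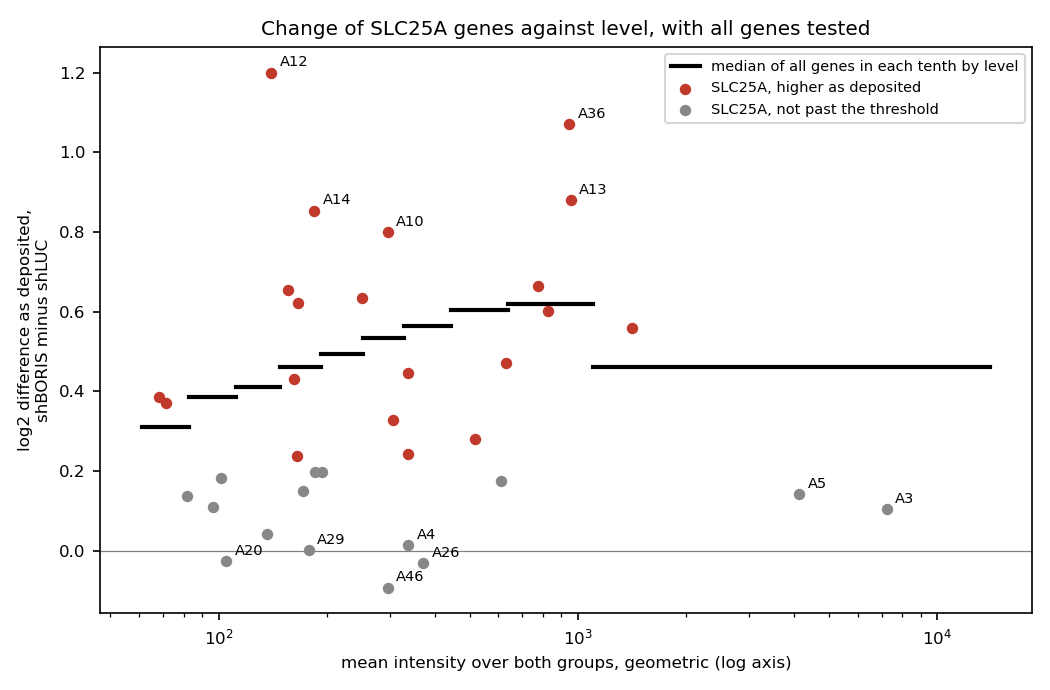
Difference between shBORIS and shLUC as deposited (vertical axis, log2) against mean intensity (horizontal axis, log scale) for the 35 tested SLC25A genes, red where called higher and grey where not called, with bars at the median of all tested genes in each decile of intensity and labels that drop SLC25. SLC25A3 and SLC25A5, in the brightest decile, lay below its median of 0.46, and SLC25A12, SLC25A13 and SLC25A36 lay above theirs.

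The carriers work with an import route and with enzymes on both sides of the membrane, for which lists were counted. Of 18 tested genes of carrier import and the outer membrane pores, 6 rose and 2 fell relative to the median gene, beside 30.2% and 28.9% of all tested genes. Their median was 0.11. The pore VDAC2 was at -0.38 and the pore VDAC3 at 0.49 (limma adjusted p = 6.76e-05 and 0.000129), and the intermembrane space chaperones TIMM8B and TIMM10B were at 0.41 and -0.42 (9.06e-05 and 0.000262). Of 19 other inner membrane transporters, 4 rose and 7 fell on the same scale, against the same shares of all genes. Their median was -0.14. SFXN2, a sideroflexin, had 336 and 371 in shBORIS, against 136 and 131 in shLUC, and rose by 0.83 (limma adjusted p = 5.28e-06). LETM1, a cation exchanger of the inner membrane, had 120.5 and 113.5 in shBORIS, against 163 and 142 in shLUC, and was at -0.82 (limma adjusted p = 2.09e-05). Its deposited difference of -0.34 became 0.17 with the mean of its probe sets. MICU2, a regulator of the calcium uniporter, and SFXN3 were at -0.48 and -0.47. The 7 that fell were 4 without shBORIS replicate 1 or shLUC replicate 2.

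Of 32 tested partner enzymes and regulators, 4 rose and 17 fell on the relative scale (30.2% and 28.9% of all genes), and 22 rose and 4 fell as deposited, where 77.2% and 4.6% of all genes did. Their median was -0.17 relative to the median gene. The 4 with the smallest p were also the 4 that fell as deposited. CPT1A, which makes the acylcarnitines that SLC25A20 carries, had 531 and 563 in shBORIS, against 682 and 671.5 in shLUC, or -0.78 ± 0.06 relative to the median gene and -0.30 as deposited (limma adjusted p = 3.58e-06 and 0.0116). CRAT, the carnitine acetyltransferase, had 232.5 and 247 in shBORIS, against 298 and 277.5 in shLUC, at -0.72 relative to the median gene (limma adjusted p = 7.61e-06). GPD2, the mitochondrial enzyme of the glycerol phosphate shuttle, had 72.0 and 84.1 in shBORIS, against 156 and 121 in shLUC, which was -1.19 ± 0.09 relative to the median gene and -0.71 as deposited (limma adjusted p = 4.82e-06 and 2.88e-10). NADK2, the mitochondrial NAD kinase, was at -0.75. As deposited CRAT and NADK2 were at -0.25 and -0.28, and NADK2 was at -0.03 with the mean of its probe sets (limma adjusted p = 0.714). The deposited calls of this list depended on single arrays, since 2, 2 and 1 enzymes fell without shBORIS replicate 1, shBORIS replicate 2 and shLUC replicate 1, and 14 rose without shBORIS replicate 2 or shLUC replicate 2. GPD2 kept its deposited call without any 1 array.

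The enzymes of the shuttles were looked at after their values had been seen. The carriers SLC25A12, SLC25A13 and SLC25A11 of the malate-aspartate shuttle rose, though SLC25A11 was not called with quantile normalization or the 60th percentile filter. Of the shuttle's enzymes, the cytosolic malate dehydrogenase MDH1 was at 0.00 relative to the median gene (limma adjusted p = 0.986). The mitochondrial MDH2 was at -0.19 (limma adjusted p = 0.00437), or 0.09 with the mean of its probe sets. The cytosolic aspartate aminotransferase GOT1 was at -0.29 (limma adjusted p = 0.00126) and the mitochondrial GOT2 at -0.07 (0.336). None of these 4 enzymes rose relative to the median gene, where 30.2% of all tested genes did. As deposited MDH1, MDH2 and GOT2 rose by 0.48, 0.29 and 0.41, as did 77.2% of all genes. Without shLUC replicate 2 the deposited difference of MDH2 was 0.21. Of the carnitine route, CPT2, the matrix enzyme, was at -0.47 (limma adjusted p = 0.000813), beside -0.50 for SLC25A20, -0.78 for CPT1A and -0.72 for CRAT. CPT1C was not called at -0.10 (limma adjusted p = 0.165) and rose by 0.38 as deposited (0.0014). As deposited, CPT2 was at 0.01 and SLC25A20 at -0.03, and neither was called. TFAM, a mitochondrial DNA packaging and transcription factor, had 406 and 399 in shBORIS, against 186 and 184.5 in shLUC, and rose by 0.58 relative to the median gene (limma adjusted p = 6.55e-05). Other regulators in the partner list did not move as a group on that scale. GABPA rose, at 0.26, while ESRRA and NRF1 fell, at -0.48 and -0.17. PPARGC1A, PPARGC1B and PPRC1 were not called, at -0.07, -0.05 and 0.13.

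**Figure D4:**
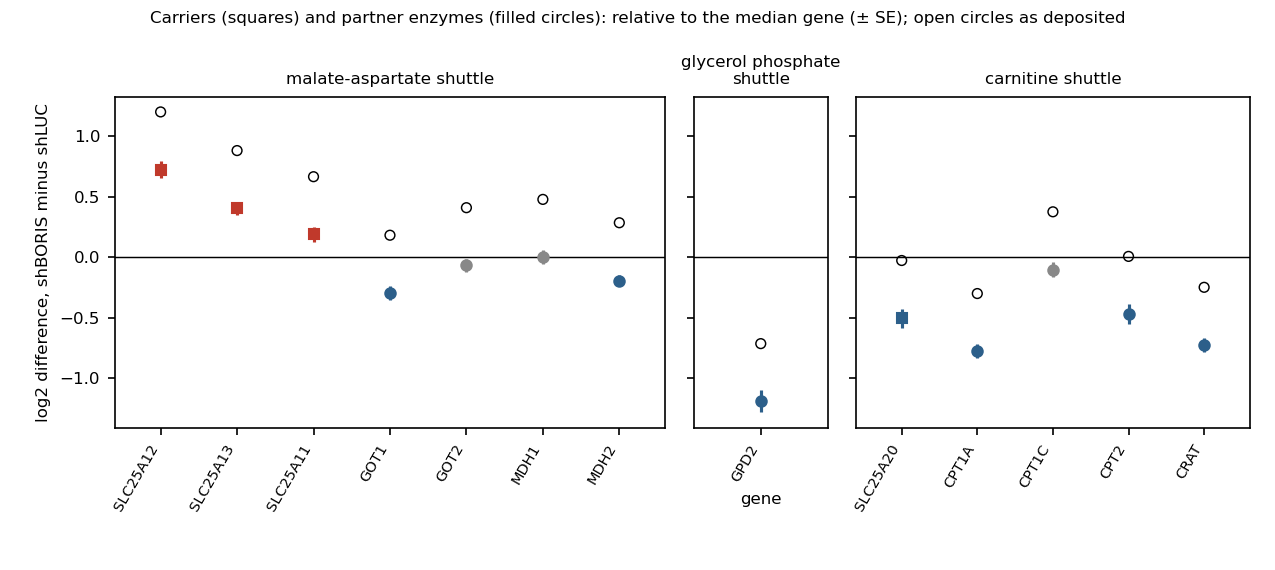
Change of the carriers and enzymes of the malate-aspartate, glycerol phosphate and carnitine routes, shBORIS over shLUC, on the log2 scale. Squares (carriers) and filled circles (enzymes) are relative to the median gene with bars of 1 SE, red called higher, blue lower and grey not called, and open circles are as deposited. Relative to the median gene, the carriers SLC25A12, SLC25A13 and SLC25A11 lay above 0, while GPD2 at -1.19, CPT1A, CRAT, SLC25A20 and CPT2 lay below it. CPT1C, at -0.10, was not called.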

How the data were processed

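RNA from 4 Kelly cultures was labelled (100 ng of total RNA with ERCC spike-ins) and hybridised to Affymetrix PrimeView arrays, per the labels' protocols. The deposited values are linear probe set intensities, 1 column per array and no pooling. The submitters' processing notes name MAS5, R 3.1.3 and affy without their roles, and the origin of the arrays' common scale was not stated in them. Replicates correlated at 0.997 and 0.996 across genes.

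Of 49495 probe sets, 45278 had 1 gene symbol, 1333 had several, 2682 were not in the platform annotation and 202 were controls. Symbols were updated through Entrez identifiers for 45208. Genes whose brightest probe set had a mean under the 40th percentile (61.4 in intensity) were not tested, 7298 in all. Values were taken as log2(intensity + 16), which understates the change of dim genes. The limma 3.58.1 fit in R 4.3.3 had the hairpin as its only term, an intensity trend and 2 residual degrees of freedom. Its 2-sided p-values were adjusted over 10946 genes (Benjamini-Hochberg, threshold 0.05), and the procedure was checked on simulated data. P-values rest on a spread between duplicates that was shared over genes. As deposited it was that of the intensity trend alone, with no weight on a gene's own duplicates. On the relative scale the trend counted as 7.86 degrees of freedom, beside 2 from the gene's own duplicates.

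Values on each array were planned for called carriers changed by at least 0.5, the ADP/ATP carriers and the brightest of every other substrate group. Other carriers and enzymes given by array were chosen after their values were seen. From each context list the 4 smallest p-values were named. The members and lists were chosen with earlier results of these data known. Alternatives were pseudocounts of 1 and 64, no filter or a 60th percentile filter, quantile normalization, ERCC centring, the mean of a gene's probe sets, no trend, a replicate block and each array left out.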

Additional observations from a re-analysis of the deposited data

How the results depend on the processing

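Relative to the median gene, 16 of the 24 called carriers kept their call and direction in every alternative that tested them, among them SLC25A3, SLC25A4, SLC25A5, SLC25A10, SLC25A12, SLC25A13, SLC25A14, SLC25A20, SLC25A36 and SLC25A46. As deposited 7 of 20 did. Leaving out 1 array gave 16 to 22 carriers higher as deposited, 5 to 7 higher and 15 to 17 lower relative to the median gene. With quantile normalization 7 carriers were higher and 15 lower in place of 20 and 0, and the median carrier was at -0.178. Lower as deposited were 2 carriers with no filter and 1 (SLC25A46) with the mean of probe sets. Higher relative to the median gene were 11 carriers with no filter and 4 with the 60th percentile filter, which tested 26 carriers. No filter moved the median gene as deposited to 0.277 and the median carrier relative to it to -0.122. By its construction, quantile normalization removes the shift of the median gene. The carriers whose deposited differences turned below 0 with it were SLC25A3 (-0.111), SLC25A4 (-0.514), SLC25A5 (-0.215), SLC25A15 (-0.408), SLC25A17 (-0.079), SLC25A22 (-0.285), SLC25A23 (-0.294), SLC25A24 (-0.284), SLC25A25 (-0.196), SLC25A29 (-0.441), SLC25A30 (-0.369), SLC25A32 (-0.259), SLC25A33 (-0.125), SLC25A37 (-0.251), SLC25A40 (-0.187), SLC25A42 (-0.24), SLC25A45 (-0.178) and SLC25A48 (-0.188). Genes of the context lists that turned included VDAC2 (-0.254), TIMM10B (-0.439), SFXN3 (-0.461), MDH2 (-0.129), GOT1 (-0.4), GOT2 (-0.177) and CPT2 (-0.347). In all, 19 partner enzymes and 9 other transporters were called lower with it, in place of 4 and 1 as deposited. With the mean of probe sets SLC25A26 and LETM1 turned to 0.226 and 0.166 as deposited, and MDH2 to 0.087 relative to the median gene, where SLC25A38, SLC25A39, SLC25A40 and SLC25A47 were then called. SLC25A25 lost its relative call with no filter (adjusted p = 0.159), with the mean of probe sets (0.242) and without shBORIS replicate 2 (0.0968). Import genes higher relative to the median gene were 10 with no filter and 3 with the 60th percentile filter or quantile normalization. Other transporters higher as deposited were 8 without shBORIS replicate 2, in place of 15. The causes of these changes were not tested.

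With the replicate block, 17 carriers were higher and 0 lower as deposited, and 7 were higher and 18 lower relative to the median gene. Same-numbered arrays deviated together only weakly (correlation 0.098), which cannot show whether they were prepared together. In the block fit SLC25A1 was called higher and SLC25A24 lower on the relative scale (limma adjusted p = 0.0473 and 0.0294). SLC25A28 was no longer called there (0.0503). Partner enzymes lower as deposited were then 1 in place of 4. Dim probes limit precision, since 11 carriers lay below the filter.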
